A study of Mus musculus with 6 samples.

Results

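Sgk1 and Tat, a pair of genes long known as targets of glucocorticoid hormones, were followed here together with Nr3c1, which encodes the glucocorticoid receptor, and with Tsc22d3, Fkbp5 and Klf9, other genes that the receptor is known to induce. They are 6 of the 13535 genes measured. Sgk1 and Tat were taken because their values in these libraries were higher in pseudo-islets than in pseudo-beta, so their levels are given as a description without a test. Nr3c1 and the other 3 genes were taken by name, for their known place in the same hormone response, and their differences were tested. The RNA was that of beta-cells of wild-type male C57BL/6JRj mice, 12 weeks old. Pancreatic endocrine cells had been sorted on the surface proteins CD24, CD49f, CD71 and CD81 after cells positive for CD45, TER119 or CD31, which mark blood and endothelial cells, had been gated out, and left to form clusters again in RPMI medium with fetal bovine serum. In pseudo-islets the beta-cells sat in clusters with the other endocrine cell types, and in pseudo-beta they were alone. After 5 days the clusters were taken apart and the beta-cells sorted again for RNA sequencing, with 3 libraries per group, from experiments numbered 35, 36 and 37 that each gave 1 library of either kind. Library values are given throughout in the order of experiments 35, 36 and 37. The sources used here do not say how many animals went into a library.

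Glucocorticoids enter the cell and bind the receptor, which is held in the cytoplasm by chaperones, moves to the nucleus and binds palindromic DNA elements near its target genes. Sgk1, serum/glucocorticoid regulated kinase, acts on ion channels, transporters and FOXO factors, and it also answers to serum, cell volume and other signals. Tat, tyrosine aminotransferase, takes the first step of tyrosine breakdown and is a textbook example of a liver gene that is induced by glucocorticoids and, through cAMP, by glucagon. Tsc22d3 encodes the glucocorticoid-induced leucine zipper protein, Fkbp5 a co-chaperone that lowers the receptor's affinity for hormone, and Klf9 a zinc-finger transcription factor. Glucocorticoids are known to dampen insulin secretion by beta-cells, and in other studies Sgk1 has been placed on that route.

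The promoter sequences of 5 of the 6 genes were searched for the receptor's element and for the cAMP response element, the letters through which both hormone routes are known to act. Sequences were those of RefSeq on GRCm38.p6, from 250 bases before to 50 bases after a transcript's start, and Nr3c1 was not searched. Sgk1 had 6 such windows, Tsc22d3 had 3, and Tat, Fkbp5 and Klf9 had 1 each, which makes 12 windows. The palindromic receptor element in its perfect form, AGAACA, any 3 bases and TGTTCT, which reads the same on both strands, was present in 3 of all 32851 windows, or 0.00913%, and 1 of these was a window of Sgk1. That match, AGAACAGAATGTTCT, lies at chr10:21993701-21993715 on GRCm38, 189 bases before one start of Sgk1 and 965 bases before the most downstream start. The upstream stretches of both of these Sgk1 starts and of the Tat start are shown. The first holds the only perfect element found in the 12 windows. They are printed 5′ to 3′ on the plus strand, on which both genes lie, each ending at the base before the start, and capitals mark the perfect receptor element.
Sgk1, chr10:21993640-21993889: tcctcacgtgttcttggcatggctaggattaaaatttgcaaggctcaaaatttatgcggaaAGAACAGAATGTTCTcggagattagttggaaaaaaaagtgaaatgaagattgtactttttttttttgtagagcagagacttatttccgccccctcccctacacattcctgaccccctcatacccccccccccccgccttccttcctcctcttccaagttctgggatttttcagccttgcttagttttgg
Sgk1, chr10:21994416-21994665: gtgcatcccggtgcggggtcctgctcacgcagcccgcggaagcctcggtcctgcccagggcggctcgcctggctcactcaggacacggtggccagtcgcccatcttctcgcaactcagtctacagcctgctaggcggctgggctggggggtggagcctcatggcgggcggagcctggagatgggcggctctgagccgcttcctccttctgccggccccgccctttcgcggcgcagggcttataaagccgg
Tat, chr8:109990186-109990435: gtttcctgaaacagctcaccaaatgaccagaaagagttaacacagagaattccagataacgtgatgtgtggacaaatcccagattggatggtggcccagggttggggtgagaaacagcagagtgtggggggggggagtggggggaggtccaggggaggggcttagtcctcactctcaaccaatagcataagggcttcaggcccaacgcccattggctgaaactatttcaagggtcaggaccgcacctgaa
A single arm of the element, AGAACA on either strand, was present in 4 of the 12 windows, 3 of Sgk1 and 1 of Tsc22d3, and in 19% of all windows. These arms are also part of the perfect element, so the Sgk1 window that holds it is counted in both. The full cAMP response element TGACGTCA was in 0 of the 12 windows and in 1.79% of all windows. Its arm TGACG, on either strand and also part of the full element, was in 3 of the 12, 1 each of Sgk1, Klf9 and Tsc22d3, and in 20.8% of all. The Tat window held none of these letters. Sequence outside the windows was not searched, so matches farther from a start, in Tat or any other gene, would not have been seen. A match of letters is a description of the sequence, and binding was not measured.

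Sgk1 (ENSMUSG00000019970, chr10:21882184-21999903, plus strand, with 13 annotated transcripts of which 9 are coding) had 370, 353 and 230 normalized counts in the pseudo-islets libraries. In the pseudo-beta libraries it had 99.9, 120 and 100.5 normalized counts. Normalized counts are the authors' read estimates per gene, scaled between libraries but not by gene length. The lowest pseudo-islets library lay above the highest pseudo-beta library, and 3 of 3 experiments had more Sgk1 in pseudo-islets. The group means were 317 ± 76.2 and 107 ± 11.4 (SD, n = 3 per group). The ratio within an experiment was 3.70, 2.94 and 2.29 in experiments 35, 36 and 37. The spread of Sgk1 was wider among pseudo-islets, with a coefficient of variation of 24.0%, than among pseudo-beta, with 10.7%, and the lowest pseudo-islets value was that of experiment 37. The log2 fold change fitted on log2(normalized count + 1) was 1.54 with a standard error of 0.26, which is 2.90-fold.

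Tat (ENSMUSG00000001670, chr8:109990437-109999803, plus strand, with 2 annotated transcripts) had 1131, 1261 and 877 normalized counts in the pseudo-islets libraries. Its pseudo-beta values were 510, 551 and 430. Here too the groups did not overlap, and Tat had its higher value in pseudo-islets in 3 of 3 experiments. The means were 1090 ± 195 and 497 ± 61.8 normalized counts (SD, n = 3 per group), and the fitted log2 fold change was 1.12 with a standard error of 0.19, or 2.18-fold. The ratio of Tat was close to the same in each experiment, 2.22, 2.29 and 2.04 in experiments 35, 36 and 37, although its level moved from one experiment to the next. The SD of the 3 within-experiment log2 differences was 0.085 for Tat and 0.35 for Sgk1. Experiment 37 was the lowest of the 3 in pseudo-islets for both genes, and experiment 36 was the highest in pseudo-beta for both. Over all genes, 10.8% had groups that did not overlap, 5.63% with pseudo-islets higher and 5.13% with pseudo-islets lower, and 18% were higher in pseudo-islets in all 3 experiments. Both genes were chosen on this contrast, so nothing is read from that share.

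**Figure D1:**
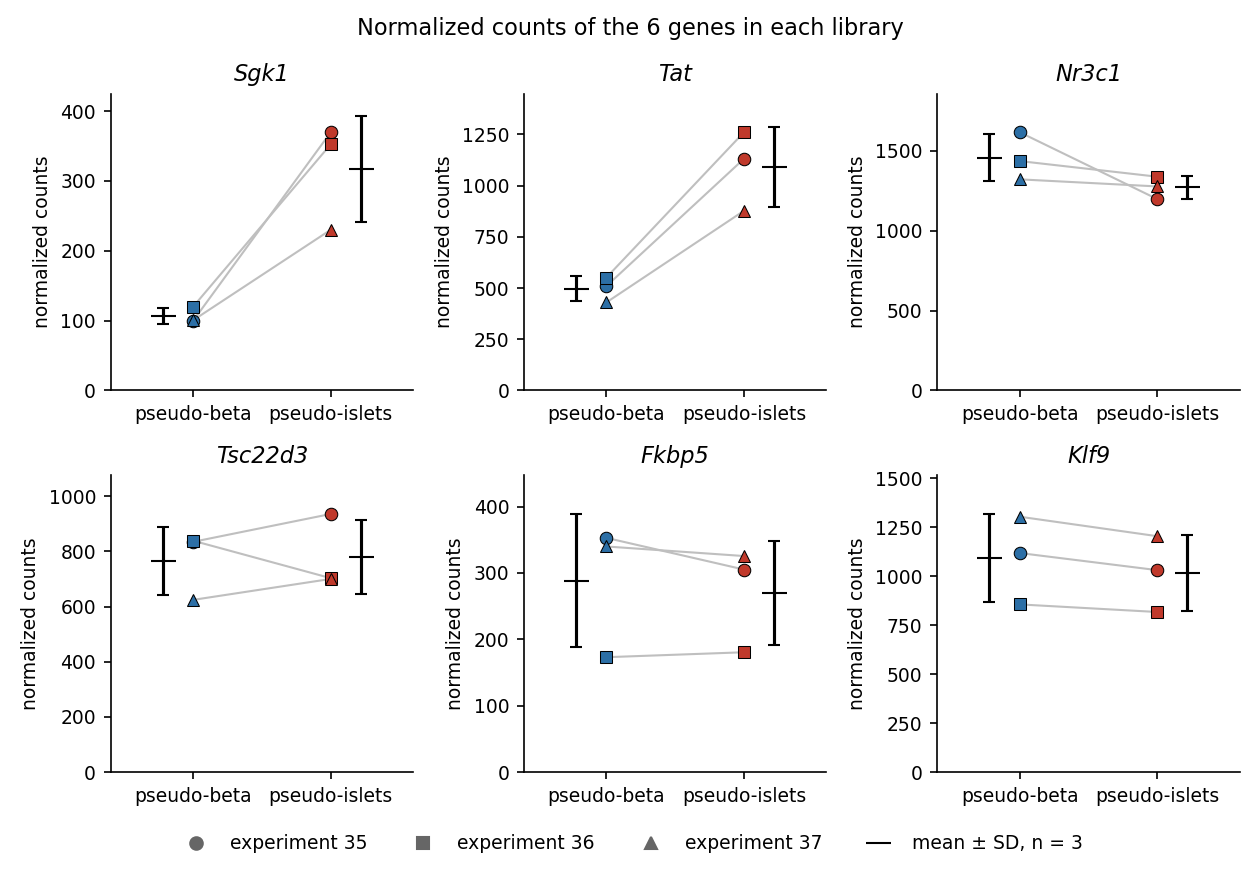
Normalized counts (y axis, from 0) of the 6 genes in pseudo-beta and pseudo-islets, 1 point per library, with the shape giving the experiment, grey lines joining the libraries of one experiment, and black bars giving the mean ± SD of 3 libraries. Sgk1 lies between 99.9 and 120 in pseudo-beta and between 230 and 370 in pseudo-islets, Tat between 430 and 551 and between 877 and 1261, while the values of the other 4 genes overlap between the groups.

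In bulk RNA a lower share of cells that use a gene and less of its RNA per cell cannot be told apart. Gcg, the glucagon gene of alpha-cells, had 1763, 941 and 2094 normalized counts in the pseudo-islets libraries and 36.1, 14.1 and 0 in those of pseudo-beta. Sst, the somatostatin gene of delta-cells, had 190, 146 and 210 against 0, 0 and 4.74. Both were called higher (limma, adjusted p = 0.044 for Gcg and 0.019 for Sst). Ppy, the pancreatic polypeptide gene, had 4172, 383 and 1791 against 1650, 219 and 731, and it was called only with the replicate block (limma, adjusted p = 0.0027 with it and 0.990 without), a call that was lost when experiment 35 was left out (adjusted p = 0.068). Of the alpha-cell list 6 of 12 markers were measured, and their summed normalized counts ran from 11391 to 13886 in pseudo-islets and from 7742 to 9173 in pseudo-beta. Of the delta-cell list 4 of 8 were measured, with sums of 560 to 758 and 399 to 514, and of the PP-cell list 3 of 4, with sums of 1014 to 5796 and 750 to 2891. The immune list had 2 of 10 measured, Cd68 and C1qa, with sums of 1656 to 2675 and 988 to 1416, and the endothelial list 1 of 8, with 41.4 to 74.4 and 56.5 to 89.5. The gate against CD45 and CD31 is meant to remove these cells. None of the 12 acinar or 8 stromal markers was among the 13535 genes, each of which reached 10 normalized counts in 3 or more libraries. With the replicate block, Ttr of the alpha-cell list, Pyy of the PP-cell list and C1qa of the immune list were called as well (limma). Pseudo-islets of experiment 36 held the lowest Gcg, Sst and Ppy of their group and the highest Tat and C1qa, while Sgk1 was highest in experiment 35. The part of these cell types in the values of Sgk1 and Tat was not tested.

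The genes whose pattern over the 6 libraries lay closest to Sgk1 and to Tat were found by the root mean square difference of log2 values, each gene centred on its own mean, among 10576 genes averaging 50 or more normalized counts. The closest to Sgk1 was Fer1l6, a member of the ferlin family, at 0.115, followed by the gene models Gm50353 at 0.213 and Gm7353 at 0.218, where the median gene lay at 0.833. Tat was the gene ranked 5 for Sgk1, at 0.239. The closest to Tat were C1qa, a subunit of complement C1q, at 0.152, Fer1l6 at 0.157 and Gm7353 at 0.167, with a median gene at 0.632, and Sgk1 held rank 12 for Tat. Fer1l6 had 1549, 1473 and 1080 normalized counts in the pseudo-islets libraries and 507, 566 and 517 in pseudo-beta. C1qa had 2318, 2661 and 1649 against 977, 1412 and 983, and among the genes closest to Sgk1 or Tat it is the one on the immune list. Cd68, the other marker of the immune list that was measured, had 18.6, 13.2 and 7.39 against 10.4, 3.74 and 4.74. The likeness rests on 6 libraries in 2 groups, so any gene with a group difference of a like size comes out near.

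**Figure D2:**
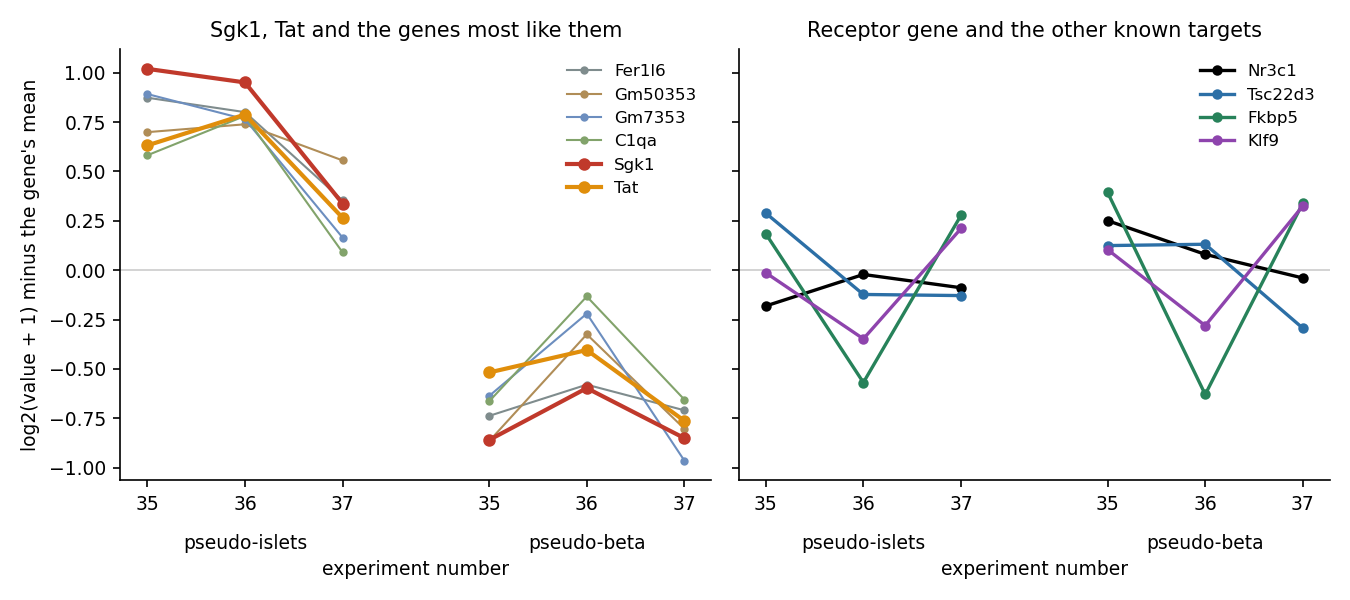
Log2(normalized count + 1) minus the mean of the gene (y axis) in the 6 libraries (x axis, experiment number within pseudo-islets and pseudo-beta), with lines that only join the points of one gene. On the left, Sgk1, Tat and the genes closest to them lie above their mean in pseudo-islets and below it in pseudo-beta. On the right, Nr3c1, Tsc22d3, Fkbp5 and Klf9 lie on both sides of their mean in at least one group, and Fkbp5 and Klf9 are lowest in experiment 36 of both groups.

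Levels of different genes were compared per kilobase of the longest coding transcript, in normalized counts averaged over the 6 libraries. Tsc22d3 was the highest of the 6 genes at 391 per kilobase, followed by Tat at 334, Klf9 at 235, Nr3c1 at 212, Fkbp5 at 72.5 and Sgk1 at 68.5, and the median of 13522 genes was 74.8. Tat stood at percentile 79.0 of all genes and Sgk1 at percentile 47.9. The library values per kilobase of Tat, 369 to 531 in pseudo-islets and 181 to 232 in pseudo-beta, overlapped those of Tsc22d3, 355 to 474 and 316 to 425, in pseudo-islets but not in pseudo-beta. Sgk1, at 74.3 to 119 and 32.3 to 38.8, overlapped Fkbp5, at 46.8 to 84.4 and 44.9 to 91.5, in pseudo-islets but lay under it in pseudo-beta. Klf9, at 182 to 269 and 191 to 291, overlapped Nr3c1, at 186 to 208 and 205 to 251, in both groups.

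The receptor gene was not called different between the groups. Nr3c1 (ENSMUSG00000024431) had 1199, 1339 and 1278 normalized counts in the pseudo-islets libraries and 1618, 1437 and 1322 in pseudo-beta. It was lower in pseudo-islets in 3 of 3 experiments, but the groups overlapped, since pseudo-islets of experiment 36 lay above pseudo-beta of experiment 37. The same direction, lower in all 3 experiments, was seen for 15% of all genes. The log2 fold change was -0.19 with a standard error of 0.14 and a 95% interval from -0.51 to 0.12 (limma, adjusted p = 0.990, n = 3 per group).

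Tsc22d3 (ENSMUSG00000031431, chrX:140539528-140600659, minus strand) had 935, 703 and 700 normalized counts in the pseudo-islets libraries and 835, 838 and 624 in pseudo-beta. Its groups overlapped and its direction differed between experiments, with a log2 fold change of 0.03, a standard error of 0.19 and a 95% interval from -0.40 to 0.45 (limma, adjusted p = 0.998). Without pseudo-islets of experiment 35 or without pseudo-beta of experiment 37 the log2 value was below 0, at -0.11 and -0.12. It was also below 0 under the other scalings tried.

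Fkbp5 (ENSMUSG00000024222, chr17:28399094-28517527, minus strand) had 305, 181 and 325 normalized counts in the pseudo-islets libraries and 353, 173 and 340 in pseudo-beta. Both libraries of experiment 36 were the lowest of the 6, and the groups overlapped. The log2 fold change was -0.07 with a standard error of 0.33 and a 95% interval from -0.80 to 0.66 (limma, adjusted p = 0.998), and it ran from -0.40 without pseudo-beta of experiment 36 to 0.20 without pseudo-islets of experiment 36. It was above 0 without pseudo-beta of experiment 35 or 37 as well. With the replicate block, leaving out single experiments gave log2 fold changes of -0.14 to -0.00091. The annotation places 4 other genes within the span of Fkbp5, AC154912.5 and AC154912.3 on its strand and AC154912.1 and Gm22146 on the other, and whether reads were counted by strand is not given in the sources used here.

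Klf9 (ENSMUSG00000033863, chr19:23141226-23168134, plus strand) had 1032, 818 and 1205 normalized counts in the pseudo-islets libraries and 1119, 857 and 1305 in pseudo-beta. The pseudo-islets library was a little below its pseudo-beta partner in 3 of 3 experiments, as for 15% of all genes, while the groups overlapped. The log2 fold change was -0.10 with a standard error of 0.20 and a 95% interval from -0.55 to 0.35 (limma, adjusted p = 0.998). It was above 0 without pseudo-islets of experiment 36, at 0.049, and without pseudo-beta of experiment 37, at 0.038. With the experiment as a replicate block its interval was -0.34 to 0.14, and leaving out single experiments gave log2 fold changes of -0.12 to -0.091.

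None of these 4 genes passed limma's test at an adjusted p under 0.05, without or with the experiment as a replicate block, and 0 of 4 had an unadjusted p under 0.05. Of all genes tested, 8 passed without the block, 0.0591%, and 73 with it, 0.539%. At an unadjusted p under 0.05 the shares were 5.4% and 11.9%. The 95% interval lay within a 1.5-fold change in either direction for 3 of the 4 genes without the block, all but Fkbp5, and for 4 of 4 with it.

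**Figure D3:**
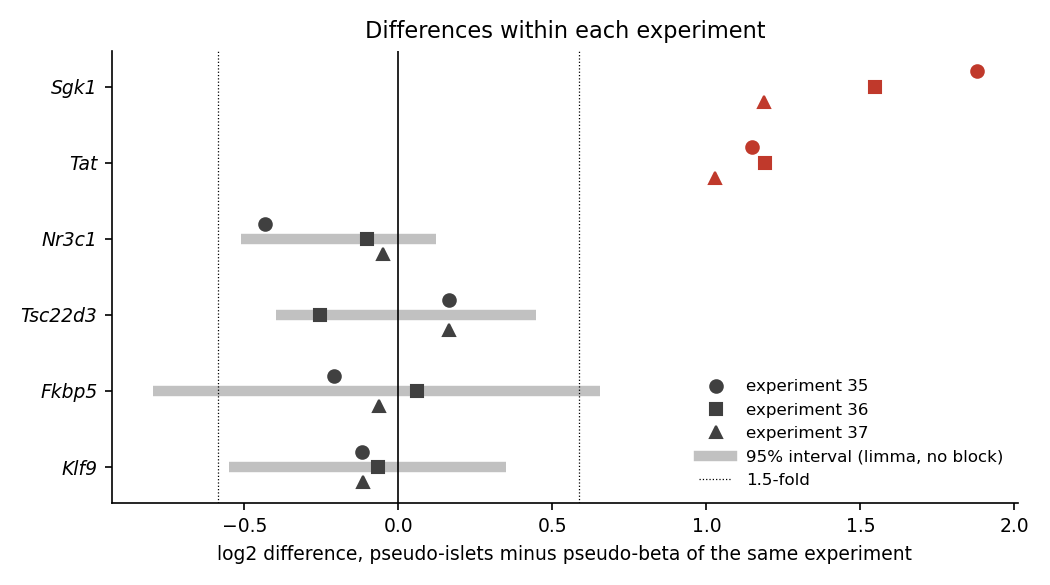
Log2 difference of pseudo-islets minus pseudo-beta within each experiment (x axis) for the 6 genes, with the shape giving the experiment, and the grey bar the 95% interval of limma without a block for the 4 genes that were tested. Dotted lines mark a 1.5-fold change. The points of Sgk1 and Tat lie right of 1 in every experiment, and 3 of the 4 grey bars lie between the dotted lines.

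The difference between the groups can be set beside the difference between experiments. The log2 range of the 3 experiment means was 0.43 for Sgk1 and 0.44 for Tat, near the median of all genes, 0.47, and below their group differences. It was 0.91 for Fkbp5, 0.58 for Klf9, 0.42 for Tsc22d3 and 0.10 for Nr3c1. For Fkbp5, Klf9 and Tsc22d3 it was larger than the difference between groups, as it was for 80.1% of all genes. The experiment means of Fkbp5 were 329, 177 and 333 normalized counts in experiments 35, 36 and 37, and those of Klf9 were 1075, 837 and 1255. Both libraries of experiment 36 were the lowest of the 6 for 7% of all genes.

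Among 32 other genes that glucocorticoids are known to induce, 21 were measured. None was called (limma, lowest adjusted p = 0.917; with the replicate block, 0.257). Only 1 of the 21, Cdkn1a, had an unadjusted p under 0.05 (limma), beside 5.4% of all genes. In sign, 10 were higher and 11 lower in pseudo-islets, and their median log2 fold change was -0.01, beside 6955 higher, 6580 lower and a median of 0.01 over all genes. Cdkn1a, the cell cycle inhibitor p21, had the highest log2 fold change, 0.34 with a standard error of 0.15, and 1530, 1257 and 1455 normalized counts in the pseudo-islets libraries against 1213, 1103 and 1029. It was the only gene of the 21 whose groups did not overlap, beside 10.8% of all genes. Foxo3, a forkhead transcription factor that SGK kinases are known to phosphorylate, had the lowest, -0.45, with 147, 171 and 252 against 266, 214 and 286. The 95% interval lay within 1.5-fold for 4 of the 21 genes without the block and for 9 with it, and for the rest it reached past 1.5-fold.

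Some of these genes were high in one experiment in both groups, and the ones given here were chosen after their values were seen. Both libraries of experiment 37 were the highest of the 6 for 6 of the 21 genes, Dusp1, Zfp36, Cebpb, Cebpd, Foxo1 and Irs2, beside 16.2% of all genes, and Klf9 shared this order. Dusp1, a phosphatase of MAP kinases, had 1332, 900 and 3805 normalized counts in the pseudo-islets libraries and 1112, 745 and 5262 in pseudo-beta. Zfp36, which speeds the decay of cytokine mRNAs, had 349, 289 and 1450 against 332, 201 and 1160. Cebpd, a transcription factor, had 43.4, 131 and 339 against 81.7, 138 and 316. In these 3 genes experiment 37 stood apart in both groups. Sgk1 and Tat did not follow that order, since experiment 37 was lowest for both in pseudo-islets.

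Of 8 genes known to be induced by both glucocorticoids and cAMP, as Tat is, 6 were measured, of which Per1, Dusp1, Irs2, Rgs2 and Cebpb are also among the 21 above and Ppargc1a is not. None was called without or with the block, and 0 had an unadjusted p under 0.05 (limma, lowest adjusted p = 0.998 without the block). They were 3 higher and 3 lower, with a median log2 fold change of -0.06. Per1, a clock gene, had 33.5, 95.8 and 81.7 normalized counts in the pseudo-islets libraries against 58.8, 47.3 and 88.3, a log2 fold change of 0.03. Irs2, the insulin receptor substrate, had 41.3, 66.6 and 265 against 78.5, 80.6 and 247, a log2 fold change of -0.36. The values of both genes overlapped between the groups, and the spread between experiments exceeded the group difference.

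No gene of the receptor's own machinery passed the test. All 22 chaperones and coregulators of the receptor on the list were measured, 13 higher and 9 lower, a median log2 fold change of 0.03, and none called without or with the block, nor at an unadjusted p under 0.05 without it (limma, lowest adjusted p = 0.989). With the block, 2 had an unadjusted p under 0.05 (limma), beside 11.9% of all genes. The interval lay within 1.5-fold for 12 of the 22 without the block and 16 with it. Nrip1, a corepressor of nuclear receptors, had the highest log2 fold change, 0.66, with 135, 89.3 and 116 normalized counts in the pseudo-islets libraries against 28.5, 71.7 and 170. Without pseudo-beta of experiment 35 that value was 0.02. Ncoa2, a coactivator, had the lowest, -0.38, with 303, 284 and 343 against 279, 569 and 410, and that value was -0.13 without pseudo-beta of experiment 36.

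Of 6 genes of corticosteroid supply and the second corticosteroid receptor, 4 were measured, 2 higher and 2 lower, with none called without or with the block and 0 at an unadjusted p under 0.05 (limma, lowest adjusted p = 0.947). Nr3c2, the mineralocorticoid receptor, which also binds glucocorticoids, had 135, 114 and 75.4 normalized counts in the pseudo-islets libraries against 198, 124 and 132. It was lower in 3 of 3 experiments, as were 15% of all genes, with a log2 fold change of -0.49. H6pd, which makes the cofactor for the enzyme that regenerates active glucocorticoid, had 107, 134 and 236 against 113, 98.0 and 151, a log2 fold change of 0.33 that was 0.011 without pseudo-islets of experiment 37. Both genes had groups that overlapped. Hsd11b1 and Hsd11b2, the enzymes that activate and inactivate glucocorticoid, were not among the 13535 genes.

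**Figure D4:**
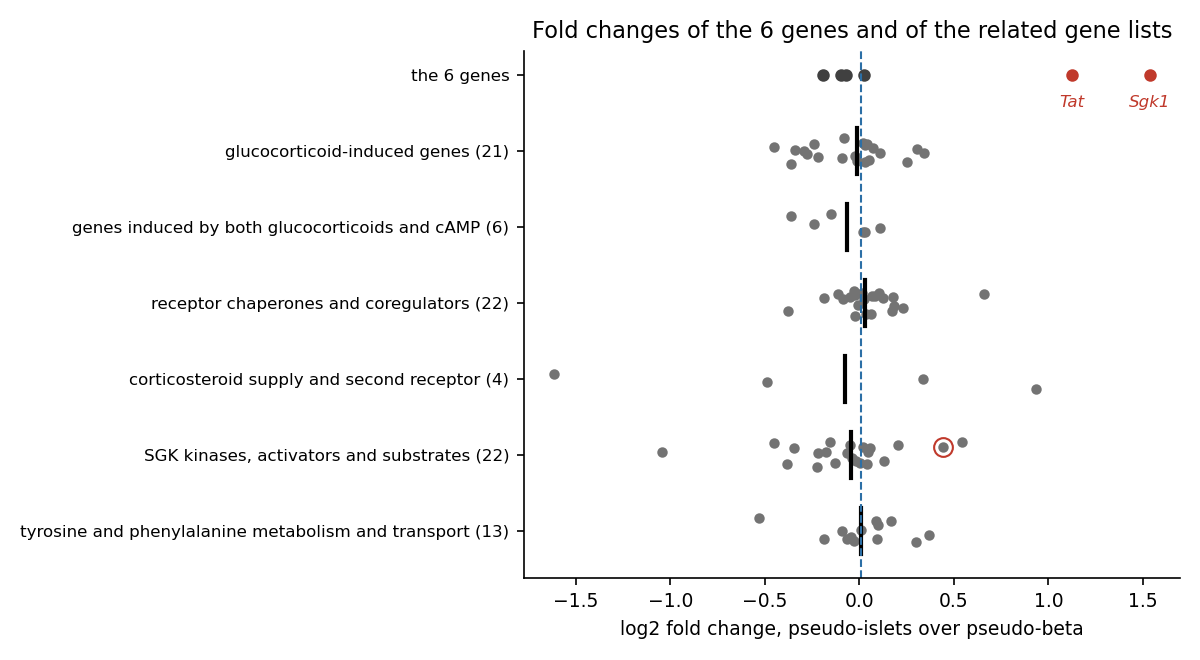
Log2 fold change of pseudo-islets over pseudo-beta (x axis) for the 6 genes and for the measured genes of each list (rows, with the number measured), 1 point per gene, with short black bars at the list medians, a dashed line at the median of all genes, and a ring around Atp1b1. The list medians lie between -0.08 and 0.03, and Sgk1 and Tat lie to the right of every gene of the lists. Sgk1 and Tat were chosen for being higher in this contrast, so nothing is read from their place.

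For the SGK kinases, their activators and their substrates, 22 of 26 genes were measured, 9 higher and 13 lower, with a median log2 fold change of -0.05. None was called without the block (limma, lowest adjusted p = 0.620). Of the 22, 1 had an unadjusted p under 0.05 (limma), beside 5.4% of all genes. That gene, Atp1b1, the beta subunit of the sodium pump, had 5173, 5836 and 5991 normalized counts in the pseudo-islets libraries against 3903, 4390 and 4201. It was higher in 3 of 3 experiments, beside 18% of all genes, and its groups did not overlap, beside 10.8% of all genes. Its log2 fold change was 0.44 with a standard error of 0.12. Atp1b1 was called with the replicate block (limma, adjusted p = 0.033), as were 0.539% of all genes. It was the only gene of the hormone response and pathway lists that was. With the block it was not called when experiment 35 or experiment 37 was left out. Slc9a3r2, a scaffold protein of sodium transport, had the highest log2 fold change, 0.54, with 49.7, 87.3 and 91.2 against 51.7, 75.9 and 32.0 (0.23 without pseudo-beta of experiment 37), and Foxo3, given above, the lowest with a mean of at least 50. The paralogs of Sgk1 were looked at for comparison, outside the rule for naming genes. Sgk2 had 544, 449 and 316 normalized counts in the pseudo-islets libraries and 427, 451 and 304 in pseudo-beta. Sgk3 had 602, 577 and 465 against 643, 439 and 372. Both overlapped between the groups, with log2 fold changes of 0.13 and 0.21 (limma, adjusted p = 0.998 for each). Nedd4l, the ubiquitin ligase that SGK1 is known to inhibit and a gene chosen after its values were seen, had 386, 410 and 422 in pseudo-islets against 616, 461 and 486 in pseudo-beta, without overlap, and did not pass the test (limma, adjusted p = 0.966). Of the 22 genes, 1 was higher and 1 lower without overlap, beside 5.63% and 5.13% of all genes.

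For the metabolism and transport of tyrosine and phenylalanine, the pathway that Tat opens, 13 of 16 genes were measured, 7 higher and 6 lower, with a median log2 fold change of 0.01. None was called without or with the block (limma, lowest adjusted p = 0.865 without it). At an unadjusted p under 0.05 (limma), 2 passed without the block and 3 with it, beside 5.4% and 11.9% of all genes. The 2 were Pcbd1 and Qdpr, both of which recycle the cofactor of phenylalanine and tyrosine hydroxylases. Pcbd1 had the highest log2 fold change, 0.37 with a standard error of 0.13, and 1874, 1688 and 1896 normalized counts in the pseudo-islets libraries against 1372, 1454 and 1391. It was the only gene of the 13 whose groups did not overlap, beside 10.8% of all genes. Slc16a10, a carrier of aromatic amino acids, had the lowest, -0.53, with 1197, 1595 and 1899 against 1495, 2296 and 3207. It was lower in 3 of 3 experiments, as were 15% of all genes, and with the replicate block it stayed short of the threshold (limma, adjusted p = 0.060). Gstz1 and Fah, which act later in tyrosine breakdown and were chosen after their values were seen, overlapped between the groups. Gstz1 had 2664, 3269 and 3300 in pseudo-islets against 2607, 3148 and 2895, and Fah had 185, 252 and 268 against 183, 282 and 201.

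The libraries were close in scale. Normalized counts summed to 17994300 to 19635300 per library, the 10 most abundant genes took 40.9% to 45.0% of them, and 25 to 95 genes were listed at 0. All 10 beta-cell markers looked for were measured, and none was called, without or with the block. How many reads stand behind a library was not recoverable from these values.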

How the data were processed

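RNA-seq libraries of re-sorted beta-cells were compared, 3 of pseudo-islets and 3 of pseudo-beta. Per the labels and methods, the authors built libraries from an input of 5 ng, removed ribosomal RNA, read both ends for 75 bases, used STAR 2.7.6a to align to GRCm38, estimated counts per gene with RSEM 1.3.1 and normalized them with DESeq2 1.26.0 in R 3.6.3. The annotation release and any filter on low genes are not given in the sources used here. The deposited values are a signal in normalized counts, per gene and library. The deposited columns of the authors' own comparison, a mean signal, a log2 fold change and its error, a score, and p-value columns, were not used.

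The values were not whole reads and no whole reads could be recovered, so depth is unknown and no count test was run. They were compared with limma 3.58.1 in R 4.3.3 on log2(normalized count + 1), with a prior variance that follows the mean, over 13535 genes with Benjamini-Hochberg adjustment and a threshold of 0.05. Each of the 13535 genes reached 10 normalized counts in 3 or more libraries, so none was removed. The log2 scale with a pseudocount understates changes of low genes. Precision is given by standard errors and 95% intervals. They rest on the spread between 3 libraries a group, with the variance of each gene drawn toward the prior variance. An exact permutation test of 3 against 3 cannot go below p = 0.1 and was not used. Deviations from the group means correlated at 0.119, 0.121 and 0.325 within an experiment and at -0.203 to 0.0922 between experiments, so the experiment numbers were taken to pair the libraries, and a fit with the experiment as replicate block was run beside the one without. Its values are given beside some of the results, and not beside every interval that it narrows. Both fits were also tried on simulated data in which experiments did not differ, unlike in these libraries. No result here rests on that trial.

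The 6 genes and the gene lists were chosen with earlier results of these data known. Of the lists, the text names genes called without or with the block, the highest and the lowest log2 fold change among genes averaging 50 or more normalized counts, Gcg, Sst and Ppy, and the 3 genes closest to Sgk1 and to Tat. Others are said to lie outside that rule. Gene coordinates and transcript lengths come from GENCODE M21 on GRCm38, and promoter sequences from RefSeq on GRCm38.p6. Alternatives were the block, 1 prior variance shared by all genes, pseudocounts of 0.1 and 10, only genes that reach 10 normalized counts in each library, scaling without the 10 most abundant genes, quantile normalization, and leaving out each library or, with the block, each experiment.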

Additional observations from a re-analysis of the deposited data

How the results depend on the processing

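Sgk1 and Tat stayed higher in pseudo-islets under every alternative run, with log2 fold changes of 1.37 to 1.75 for Sgk1 and 1.01 to 1.27 for Tat. Both were chosen for being higher and their groups did not overlap, so leaving out libraries could not turn their direction. Nr3c1, Tsc22d3, Fkbp5 and Klf9 were called under none of the alternatives, with adjusted p (limma) of 0.541 to 1 for Nr3c1, 0.795 to 1 for Tsc22d3, 0.894 to 1 for Fkbp5 and 0.781 to 1 for Klf9. The number of genes called over the table was 8. It was 73 with the replicate block, 2 with 1 prior variance shared by all genes, 1 with a pseudocount of 0.1, 2 when scaled without the 10 most abundant genes and 2 after quantile normalization. Leaving out single libraries gave 0 to 13 genes, 0 without each pseudo-islets library or pseudo-beta of experiment 35, 1 without pseudo-beta of experiment 36 and 13 without pseudo-beta of experiment 37. With the block, leaving out experiment 35, 36 or 37 gave 28, 73 and 45. Of the lists, the SGK kinases, activators and substrates gained 1 call with the replicate block, and 0 to 1 when experiments were left out of that fit. The block changed no other call in the hormone response and pathway lists, and in the marker lists it added Ttr, Ppy, Pyy and C1qa. The log2 fold change of Tsc22d3 turned to -0.033 when scaled without the 10 most abundant genes and to -0.0038 after quantile normalization, and that of Per1 to -0.025 under the first of these. Leaving out single libraries gave -0.12 to 0.10 for Tsc22d3, -0.40 to 0.20 for Fkbp5, -0.26 to 0.049 for Klf9, -1.13 to 0.19 for Irs2 and -0.25 to 0.49 for Per1. With the block, leaving out single experiments gave -0.045 (without 37), -0.044 (without 35) and 0.16 for Tsc22d3, -0.12 to 1.26 for Nrip1 and -0.45 to 0.45 for Per1. The cause of these shifts was not tested. Fkbp5, Klf9 and Irs2 stayed below 0 with the block when single experiments were left out. Their log2 fold changes were then -0.14 to -0.00091, -0.12 to -0.091 and -0.59 to -0.086. Gcg and Sst kept their direction and were called with the block, but neither was called with the shared prior variance, with a pseudocount of 0.1 or without any single library other than pseudo-beta of experiment 37, and Gcg was not called under either other scaling. Analysis without any filter was not run, since no gene had been removed. Over all values recomputed, 389 kept direction and side of the threshold or stayed within the spread between libraries, 20 turned direction, 16 lost a call, 5 gained one and 16 counts moved by over 1.5 times.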
